A study of Mus musculus with 12 samples.

Results

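Growth factors that myeloid cells can supply to a glioma were followed across myeloid populations sorted by flow cytometry from the brain and the blood of mice. The 10 genes were Igf1, Vegfa, Vegfb, Pdgfa, Pdgfb, Pdgfc, Hbegf, Hgf, Osm and Bmp2k, out of 19938 genes with a symbol of their own on the array. Each was taken by its symbol, and each had exactly 1 probe set among those annotated with a single gene. RNA was hybridised to 12 Affymetrix Mouse Gene 1.0 ST arrays, 1 for each population, so no condition had a replicate and the number of arrays limits the precision of every value below.

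The tumor arrays came from C57BL/6 mice, 7 weeks old, that carried GL261 gliomas, a mouse glioma line implanted in the brain, for 2 weeks. From their brains came macrophages (MP, sorted as CD11b+/CD45high), microglia (MG, CD11b+/CD45low), Gr1+ cells and Gr1- cells. From their blood came Gr1+ cells, Gr1- cells and macrophage populations named high and low, words that the labels do not explain. The normal arrays were brain MP, brain MG and blood macrophage high and low of C57BL/6 mice, also given as 7 weeks old, for which the labels repeat the implantation text although the disease state reads normal. How many mice were pooled for an array is not given in the sources used here.

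Growth factors of this kind are secreted or membrane-bound proteins that act on receptor tyrosine kinases or cytokine receptors of nearby cells. Myeloid cells of brain tumors are known as a source of factors that act on tumor cells and on vessels. Igf1 encodes a ligand of the IGF1 receptor, Vegfa and Vegfb encode ligands of the VEGF receptors, and Pdgfa, Pdgfb and Pdgfc encode ligands of the PDGF receptors. Hbegf encodes a ligand of the EGF receptor family, Hgf the ligand of Met, and Osm a cytokine of the IL-6 family that signals through gp130. Bmp2k stands apart, since it encodes an intracellular kinase and not a secreted factor.

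Values are on the log2 scale, and an array's background is the level below which 95% of 1027 olfactory receptor genes lay, genes that myeloid cells are not known to use. It ran between 8.93 and 10.09, and between 11.2% and 39.1% of genes lay above it, with the lowest share on normal blood macrophage high. Several arrays went against their labels. The blood Gr1- array had all 7 measured microglia markers above background at a median of 12.10, as on tumor MP (12.10), and its Pearson's r with tumor MP was 0.962. Both blood Gr1 arrays had 2 of 4 oligodendrocyte markers above background, as on tumor MP, while the blood macrophage arrays had 0. Tumor blood macrophage low and normal blood macrophage high had 6 and 5 of 6 NK cell markers above background, and 0 of 5 monocyte markers on the normal array. Each blood macrophage array, and blood Gr1-, had 3 of 3 B cell markers above background. Their medians were 12.17 on tumor macrophage low, 11.92 on normal high, 10.37 on tumor high, 10.98 on normal low and 9.96 on Gr1-. Tumor MP carried the microglia markers at the level of tumor MG (12.02). Values of these arrays are therefore given under their labels, and a lower level of a gene cannot be told apart from fewer cells that express it.

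Of the 10 genes, Bmp2k was above background on 11 arrays, Pdgfa and Pdgfb on 8 each and Vegfb on 6. Igf1, Vegfa and Osm were above background on 3 arrays each and Hgf on 1. Pdgfc, with values between 6.99 and 8.40, and Hbegf, between 8.07 and 9.23, were below background on all 12 arrays. The map of the 10 genes shows this division, with Bmp2k well above background nearly everywhere and the low genes below it.

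**Figure D1:**
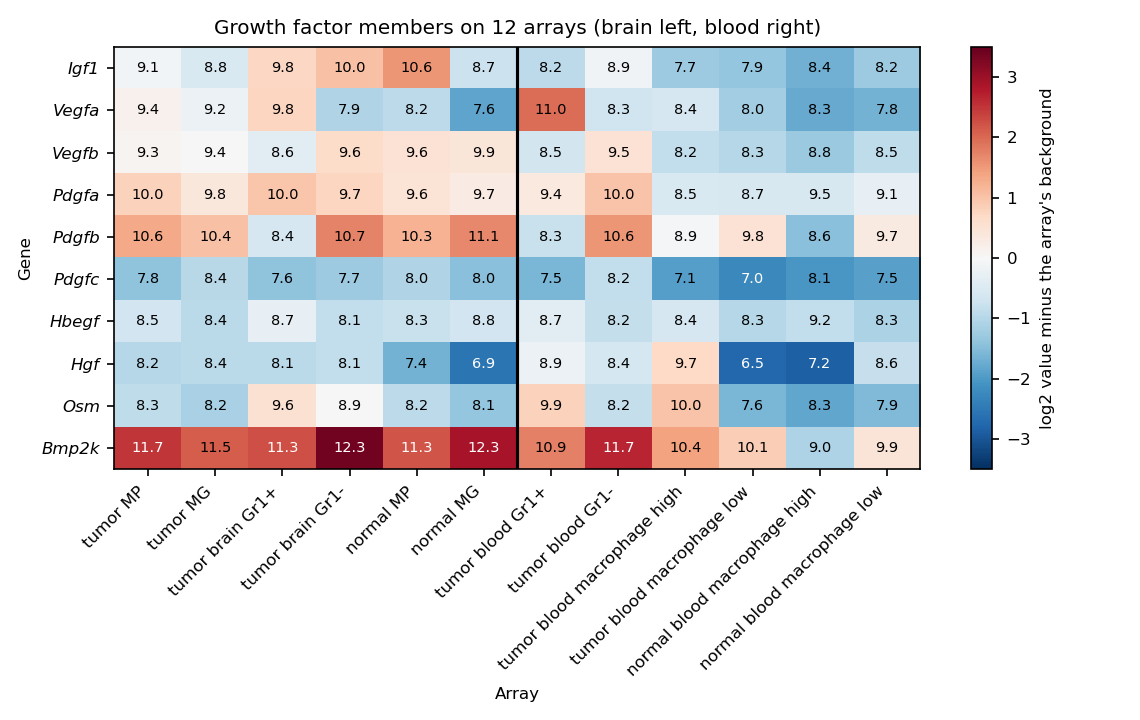
Log2 value of each of the 10 genes (rows) on each of the 12 arrays (columns, brain left of the black line, blood right of it), printed in the cells. Color is the log2 value minus the array's own background, red above and blue below, so rows compare arrays within a gene. Bmp2k is red on 11 arrays, and Pdgfc and Hbegf are blue on all 12.

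Vegfa, the main angiogenic ligand of its family, was measured above background in Gr1+ cells of both tissues. On the brain arrays it read 9.77 on tumor Gr1+, 9.38 on tumor MP, 9.16 on tumor MG and 7.88 on tumor Gr1-, against 8.16 on normal MP and 7.58 on normal MG. On the blood arrays it read 11.04 on Gr1+, 8.33 on Gr1-, 8.42 on macrophage high and 8.05 on macrophage low of tumor-bearing mice, against 8.32 and 7.77 on macrophage high and low of normal mice. Above background it was found on tumor brain Gr1+, tumor MP and blood Gr1+, with tumor MP only just above (background 9.23). The order of the highest 4 arrays, blood Gr1+, tumor brain Gr1+, tumor MP and tumor MG, had gaps of 1.26, 0.40 and 0.22, the last smaller than the SD of olfactory receptor genes between those arrays (0.35). That SD is the yardstick used throughout for noise between 2 arrays, and it is not a replicate error.

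Vegfb, the family member that binds the receptor Flt1 but not Kdr, was spread differently. In the brain it read 9.32 on tumor MP, 9.39 on tumor MG, 8.62 on tumor Gr1+ and 9.57 on tumor Gr1-, against 9.56 on normal MP and 9.86 on normal MG. In the blood it read 8.45 on Gr1+ and 9.53 on Gr1-, and between 8.16 and 8.79 on the 4 macrophage arrays. It was above background on 5 brain arrays and on blood Gr1-, and on both Gr1+ arrays it was below. 

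Because the differences of Vegfa and Vegfb had opposite signs between Gr1+ and Gr1- cells, their promoters are shown, as the 250 bases before the start site in RefSeq (build GRCm38.p6), with GC boxes (GGGCGG or its reverse complement CCGCCC) in capitals. The Vegfa window lies at chr17:46032378-46032627 on the minus strand, and the Vegfb window at chr19:6987652-6987901 on the minus strand.
Vegfa: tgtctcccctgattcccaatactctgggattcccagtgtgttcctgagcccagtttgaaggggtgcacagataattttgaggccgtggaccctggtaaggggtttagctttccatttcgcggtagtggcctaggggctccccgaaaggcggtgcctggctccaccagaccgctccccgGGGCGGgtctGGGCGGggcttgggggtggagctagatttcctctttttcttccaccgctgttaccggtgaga
Vegfb: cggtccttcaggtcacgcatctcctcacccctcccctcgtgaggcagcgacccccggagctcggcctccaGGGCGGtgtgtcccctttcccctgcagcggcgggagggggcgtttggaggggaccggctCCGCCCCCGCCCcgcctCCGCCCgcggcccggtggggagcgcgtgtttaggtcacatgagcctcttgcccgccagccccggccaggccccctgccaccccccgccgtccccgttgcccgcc
The Vegfa window held 2 GC boxes at 59.2% GC and the Vegfb window 4 at 76.4% GC, and 32.7% of 32851 such windows held at least 1. Both strands were also searched for the core of the hypoxia response element, ACGTG, held by 16.6% of windows, and for a PU.1 core, GAGGAA, held by 23.3%. The hypoxia core had no match in either window, and the PU.1 core had 1 match in Vegfa, outside the GC boxes, and none in Vegfb. A match is a string of letters and not a bound site, and sequence further from a start site than 250 bases was not searched. An alternative Vegfa start site, not printed, had 1 hypoxia core in its window.

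Among the PDGF ligands, Pdgfb was low on both Gr1+ arrays and above background on the other 5 brain arrays. It read 10.56 on tumor MP, 10.41 on tumor MG, 8.44 on tumor Gr1+ and 10.68 on tumor Gr1- of the brain, against 10.28 on normal MP and 11.12 on normal MG. On the blood arrays of tumor-bearing mice it read 8.31 on Gr1+, 10.58 on Gr1-, 8.94 on macrophage high and 9.76 on macrophage low, against 8.62 and 9.71 on normal macrophage high and low. It was below background on the Gr1+ arrays of brain and blood and also on both macrophage high arrays. These values below background carry no order among themselves.

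Pdgfa was even across the brain arrays, highest on tumor MP (10.03) and lowest on normal MP (9.55), and above background on all 6. Among the 6 blood arrays it was above background on Gr1+ (9.43) and Gr1- (10.01) and below on the macrophage arrays, where it ran between 8.48 and 9.53. In its order over the 12 arrays, the widest gap between neighbours was 0.43, about as wide as the yardstick for those arrays (0.43). Pdgfc gave no value above background.

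Igf1 was highest on normal MP. In the brain it read 9.12 on tumor MP, 8.83 on tumor MG, 9.75 on tumor Gr1+ and 9.96 on tumor Gr1-, against 10.62 on normal MP and 8.68 on normal MG. Its blood values were between 7.74 and 8.91, all below background, and the highest of them was on Gr1-. It was above background on normal MP, tumor Gr1- and tumor Gr1+ only, with both Gr1 arrays 0.21 apart, within the yardstick of 0.35.

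Osm was above background on 2 blood arrays and 1 brain array, and Hgf on 1 blood array. Osm read 10.02 on tumor blood macrophage high, 9.90 on blood Gr1+ and 9.56 on tumor brain Gr1+, and no more than 8.93 elsewhere, which on tumor brain Gr1- is just under that array's background. Hgf was above background only on tumor blood macrophage high (9.72), with 6.50 to 8.88 on the other 11 arrays. Hbegf varied by little, and its highest value (9.23) was on normal blood macrophage high, where background was 10.09.

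Bmp2k was above background in every brain population. Brain values were 11.74 on tumor MP, 11.49 on tumor MG, 11.28 on tumor Gr1+ and 12.30 on tumor Gr1-, against 11.28 on normal MP and 12.31 on normal MG. Blood values were 10.87 on Gr1+, 11.68 on Gr1-, 10.42 on macrophage high and 10.11 on macrophage low of tumor-bearing mice, against 9.01 and 9.85 on normal macrophage high and low. Normal blood macrophage high was the only array on which it was below background.

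**Figure D2:**
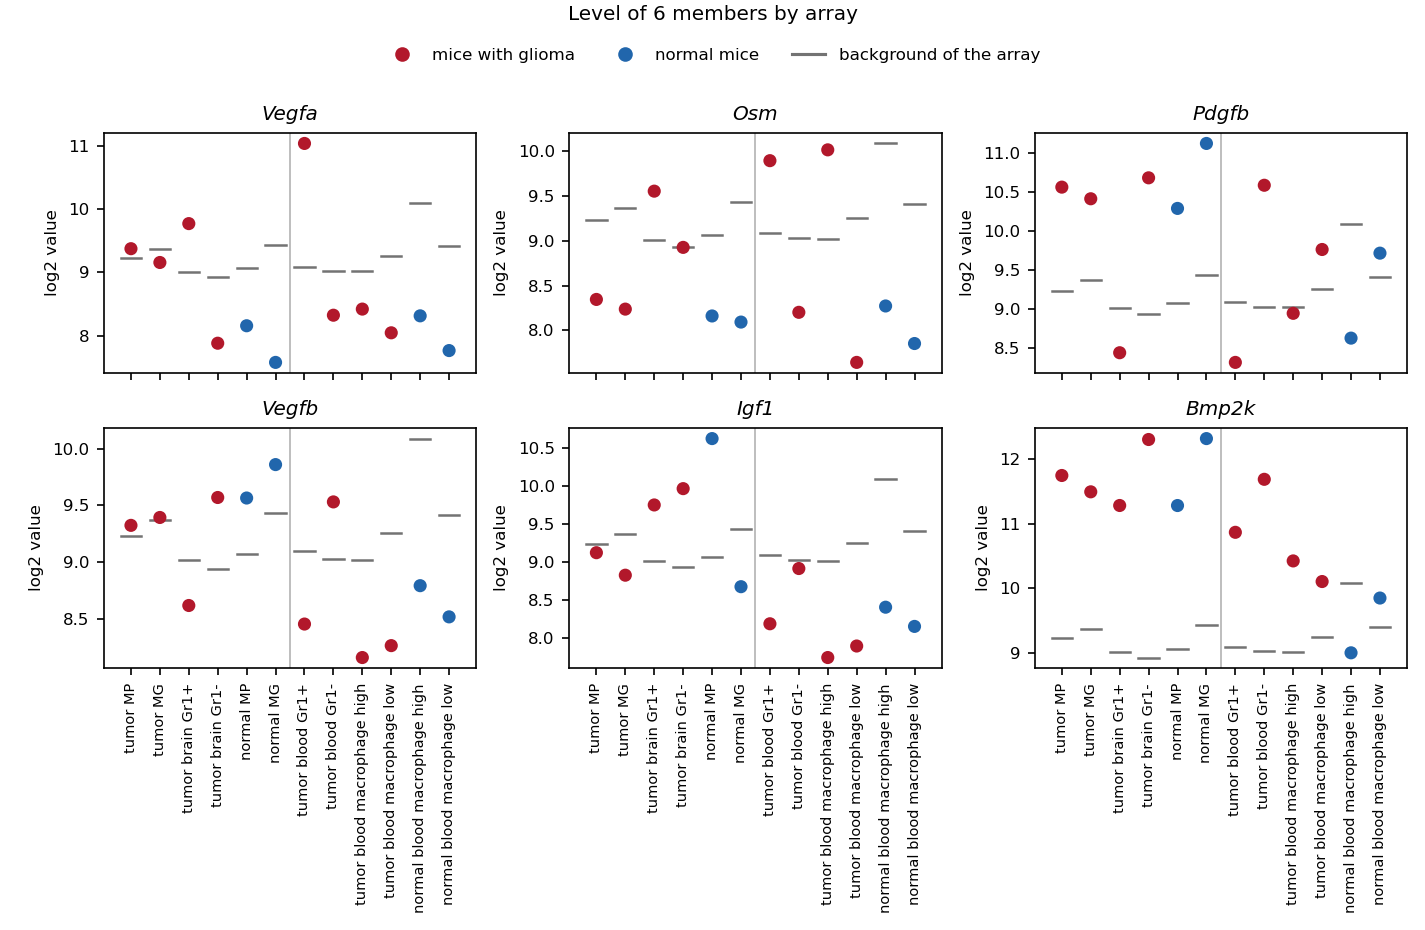
Log2 value (vertical axis) of Vegfa, Osm, Pdgfb, Vegfb, Igf1 and Bmp2k on the 12 arrays (horizontal axis, brain left of the gray line), with 1 point for each array and a dash at that array's background. Red points are mice with glioma and blue points normal mice. Vegfa stands at 11.04 on tumor blood Gr1+, and Pdgfb at 8.44 and 8.31 on the Gr1+ arrays of brain and blood.

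Whether glioma changed these genes in microglia was asked by setting tumor MG against normal MG. None of the 10 genes met the call used for 2 arrays, at least 2-fold apart with the brighter array above its background, which 3.09% of all genes met. Vegfa (9.16 on tumor MG against 7.58 on normal MG, a log2 difference of 1.58) and Hgf (8.42 against 6.88, 1.54) were more than 2-fold apart, but both were below background on both arrays. Bmp2k differed by -0.82, Pdgfb by -0.71 and Vegfb by -0.47, beyond the yardstick of 0.41 but under 2-fold, and Igf1 by 0.15. After median centring, quantile or cyclic loess normalization Vegfb had -0.37, -0.40 and -0.39, no longer beyond 0.41. The median over the 10 genes was 0.10, against -0.09 over all genes. Monocyte markers differed too, with 4 of 5 above background on tumor MG (summed level 13.07 on the log2 scale) against 0 of 5 on normal MG (10.16). The summed level of microglia markers was 14.76 on tumor MG against 15.67 on normal MG. The part of monocyte and microglia markers in these values was not tested.

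Tumor MP against normal MP gave 2 calls, where 3.32% of all genes were called. Vegfa was 2.32-fold higher on tumor MP (log2 difference 1.22, at least 0.31 against the background of normal MP, where it was not above it). Igf1 was 2.83-fold lower on tumor MP (-1.50), and at least 1.39 lower on the log2 scale when tumor MP is held at its background. Among the other 8 genes, Hgf had 0.84, below background on both arrays, Pdgfa 0.48 and Bmp2k 0.46, against a yardstick of 0.39. The summed level of microglia markers was 14.88 on tumor MP against 13.94 on normal MP, and its part in these values was not tested. Markers of other cells differed as well: 1 of 8 neutrophil markers was above background on tumor MP (summed level 11.78) against 8 of 8 on normal MP (15.67), and 1 of 4 markers of border macrophages on tumor MP (10.29) against 4 of 4 on normal MP (14.21). Their part in the Igf1 difference was not tested.

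Tumor brain Gr1+ against Gr1- cells gave 3 calls among the 10 genes, where 5.26% of all genes were called. Vegfa was 3.70-fold higher in Gr1+ (1.89, at least 0.84 over the background of Gr1-). Pdgfb was 4.72-fold lower (-2.24), and at least 1.66 lower on the log2 scale with Gr1+ at its background. Bmp2k was 2.03-fold lower (-1.02), close to the threshold and under it after quantile (-0.98) or cyclic loess (-0.96) normalization. Vegfb (-0.95), Hbegf (0.66) and Osm (0.63) were beyond the yardstick of 0.35 but under 2-fold. Hbegf was below background on both arrays, Vegfb on Gr1+ and Osm on Gr1-. Microglia markers were above background for 3 of 7 on Gr1+ (summed level 11.93) against 7 of 7 on Gr1- (15.05), monocyte markers for 5 of 5 (14.80) against 3 of 5 (11.39), and NK cell markers for 0 of 6 (9.84) against 2 of 6 (11.75). Their part in the result was not tested.

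Blood Gr1+ against blood Gr1- gave 4 calls, where 4.88% of all genes were called. Vegfa was 6.54-fold higher in Gr1+ (2.71, at least 2.01 over the background of Gr1-), and Osm 3.24-fold higher (1.70, at least 0.87). Pdgfb was 4.81-fold lower (-2.27, at least 1.49 lower with Gr1+ at its background). Vegfb was 2.11-fold lower (-1.08, at least 0.44 lower), and under the threshold after median centring, quantile or cyclic loess normalization (-0.97 to -0.98). Bmp2k (-0.82) and Pdgfa (-0.58), above background on both arrays, were beyond the yardstick of 0.38 but under 2-fold. Igf1, Pdgfc, Hbegf and Hgf were also beyond it, but below background on both arrays. Blood Gr1- is the array that carried 7 of 7 microglia markers, at a summed level of 14.67 against 11.88 on blood Gr1+, and neutrophil markers were above background for 6 of 8 on Gr1+ (14.99) against 0 of 8 on Gr1- (10.36). B cell markers were above background for 1 of 3 on Gr1+ (10.07) against 3 of 3 on Gr1- (11.61). Whether the 4 calls reflect circulating cells was not tested. In the brain and the blood comparison alike, Vegfa was called higher and Pdgfb called lower on Gr1+. The comparisons share no array but are not independent, with r of 0.949 between both Gr1- arrays and 0.935 between both Gr1+ arrays. Brain Gr1- also had 7 of 7 microglia markers above background (15.05).

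Gr1+ cells of the tumor brain against those of the blood differed at least 2-fold in 2 of the 10 genes, where 1.85% of all genes were called. Igf1 was 2.95-fold higher on brain Gr1+ (9.75 against 8.19, a log2 difference of 1.56, at least 0.66 over the background of the blood array). Vegfa was 2.40-fold lower (9.77 against 11.04, -1.26), with both arrays above background. Hgf (-0.81) and Pdgfa (0.55) were beyond the yardstick of 0.43, but Hgf was below background on both arrays. Neutrophil markers were above background for 0 of 8 on brain Gr1+ (summed level 11.07) and 6 of 8 on blood Gr1+ (14.99), and their part in these differences was not tested.

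Tumor MP against tumor MG gave no call among the 10 genes. All 10 differences lay between -0.58 (Pdgfc, below background on both arrays) and 0.30 (Igf1), and r between both arrays over all genes was 0.975. In this comparison 0.00502% of all genes were called, which is the single gene Snora52, a small nucleolar RNA that was picked out once its value was known.

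Normal MP against normal MG gave 2 calls, where 4.65% of all genes were called. Igf1 was 3.86-fold higher on normal MP (10.62 against 8.68, a log2 difference of 1.95, at least 1.19 over the background of normal MG). Bmp2k was 2.05-fold lower (11.28 against 12.31, -1.03), close to the threshold, and -0.88 with the arrays centred on their medians. The median over all genes was -0.22 in this comparison, so Bmp2k stood less far from it than its difference reads. Pdgfb differed by -0.83, beyond the yardstick of 0.39. Normal MP held 8 of 8 neutrophil and 4 of 4 border macrophage markers above background, against 0 of 8 and 1 of 4 on normal MG, and summed levels were 15.67 and 14.21 against 10.86 and 10.78. Monocyte markers were above background for 4 of 5 (13.45) against 0 of 5 (10.16), and the summed level of microglia markers was 13.94 on normal MP against 15.67 on normal MG. Their part in the Igf1 difference was not tested.

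Tumor MP against tumor blood macrophage high gave 6 calls, where 8.59% of all genes were called. Pdgfb was 3.06-fold higher on tumor MP (1.62, at least 1.54), Pdgfa 2.94-fold (1.55, at least 1.01), Bmp2k 2.49-fold (1.32, above background on both arrays) and Vegfb 2.25-fold (1.17, at least 0.30). Osm was 3.19-fold lower (-1.67, at least 0.79 lower) and Hgf 2.77-fold lower (-1.47, at least 0.48 lower). The median of all genes was 0.22 and the yardstick 0.62. Vegfb was under the threshold after each rescaling, at 0.92 with median centring. Igf1 was 2.60-fold higher, but below background on both arrays. Microglia markers were above background for 7 of 7 on tumor MP (summed level 14.88) against 1 of 7 on blood macrophage high (11.33), neutrophil markers for 1 of 8 (11.78) against 6 of 8 (15.67), B cell markers for 0 of 3 (9.29) against 3 of 3 (12.14) and platelet markers for 0 of 3 (9.99) against 3 of 3 (11.01). Their part in the result was not tested.

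**Figure D3:**
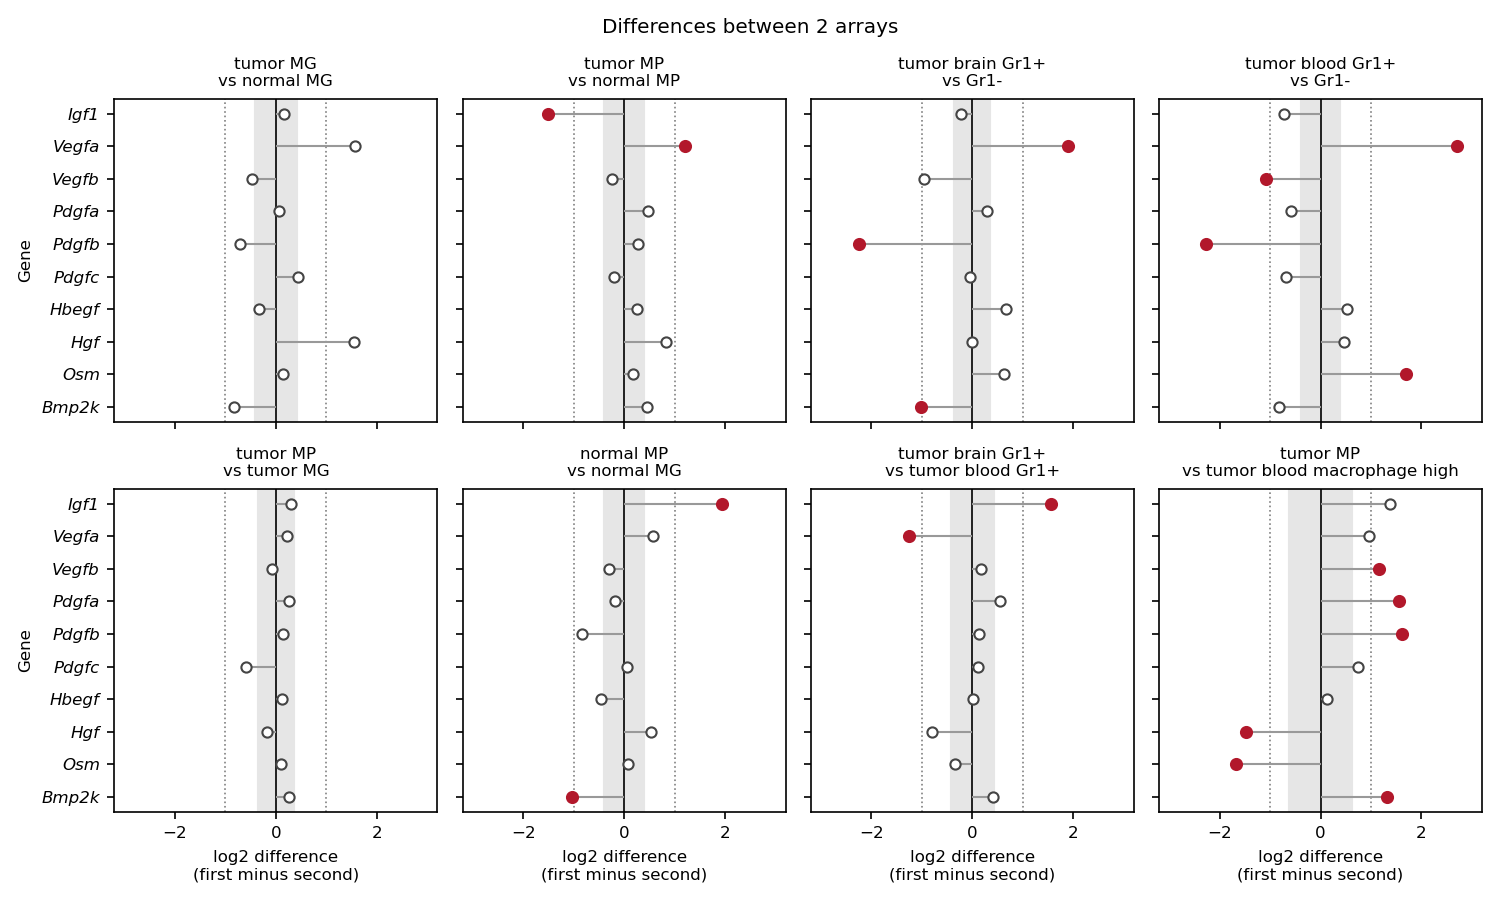
Log2 difference (horizontal axis, array named above minus array named below in each panel title) of the 10 genes (vertical axis) in 8 comparisons of 2 arrays. Filled red points are called, open points are not, dotted lines mark 2-fold, and the gray band is 1 SD of olfactory receptor genes. Vegfa lies right of 2-fold and Pdgfb left of it for Gr1+ against Gr1- cells in the brain (1.89 and -2.24) and in the blood (2.71 and -2.27).

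Brain and blood were set against each other with limma over all genes, 6 arrays a side, where the spread is that among unlike populations and not among replicates. None of the 10 genes passed an adjusted p of 0.05, and 4 had an unadjusted p under 0.05. Over all genes, 7 passed (0.0351%), all lower in brain, and 2082 had an unadjusted p under 0.05. Bmp2k averaged 11.73 ± 0.47 in brain and 10.32 ± 0.91 in blood (SD, 6 arrays each), a difference of 1.41 with a standard error of 0.37 (limma adjusted p = 0.208). Igf1 averaged 9.49 ± 0.75 in brain and 8.22 ± 0.41 in blood, a difference of 1.28 with a standard error of 0.31 (limma adjusted p = 0.184). The brain and blood ranges of all 10 genes overlapped, with 4 of 6 brain arrays above the highest blood array for Igf1 and 3 of 6 for Bmp2k and for Vegfb.

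Vegfb averaged 9.39 ± 0.42 in brain and 8.62 ± 0.50 in blood (difference 0.77, limma adjusted p = 0.252), and Pdgfa 9.79 ± 0.18 and 9.21 ± 0.57 (0.58, limma adjusted p = 0.376). Pdgfb differed by 0.92 (limma adjusted p = 0.484), and Vegfa averaged 8.65 in both tissues, with SDs of 0.90 in brain and 1.19 in blood. Without the blood Gr1- array, which carried microglia markers, limma called 3 of the 10 genes: Bmp2k at 1.68 (adjusted p = 0.0141), Igf1 at 1.42 (adjusted p = 0.0286) and Vegfb at 0.95 (adjusted p = 0.0352). Blood Gr1- held the highest blood value of all 3 (11.68, 8.91 and 9.53), so leaving it out could only raise their differences. Of all 19938 genes, 582 were called, 431 higher and 151 lower in brain. The direction of the calls over all genes turned when this array was left out. It also changed with every array kept and values below background raised to it, where 561 were called, 295 higher and 266 lower. Over 11 alternatives the adjusted p ran between 5.50e-06 and 0.420 for Bmp2k, 0.0286 and 0.646 for Igf1, and 0.0352 and 0.848 for Vegfb.

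**Figure D4:**
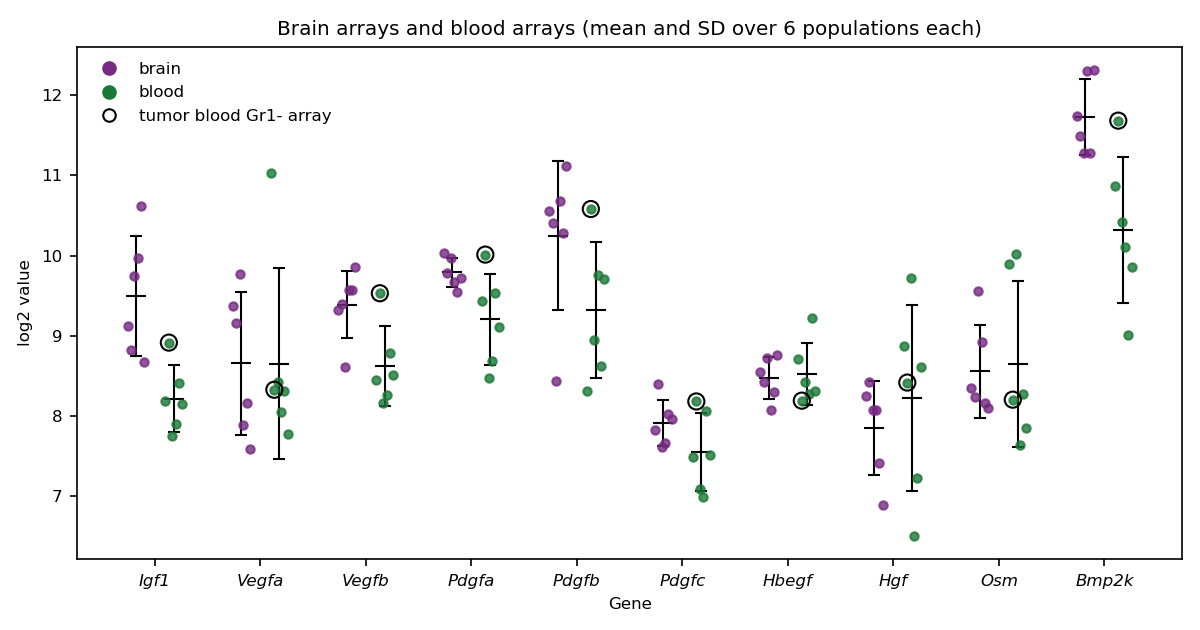
Log2 value (vertical axis) of the 10 genes (horizontal axis) on the 6 brain arrays (purple, left) and the 6 blood arrays (green, right), with lines at the mean and bars of 1 SD over populations. The circled point is the blood Gr1- array, which for Bmp2k (11.68), Pdgfb (10.58) and Vegfb (9.53) lies among the brain arrays.

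Receptors for these ligands were measured on the same arrays. Differences of receptors, and of the lists after them, are given as deposited with no floor at background. In several of them the dimmer array was below its background. Of 14, 5 were above background on no array: Pdgfra and Pdgfrb, the receptors of the PDGF ligands, Egfr and Erbb4 of the EGF receptor family, and Osmr, which pairs with gp130 in the oncostatin M receptor. In Gr1+ against Gr1- cells, 2 of 14 were called higher and 2 lower in the tumor brain, where 5.26% of all genes were called, and 3 higher and 3 lower in the blood, against 4.88% of all genes. Flt1, the receptor of Vegfa and Vegfb, had 11.83 on brain Gr1+ against 9.24 on brain Gr1- (2.59), and 10.00 on blood Gr1+ against 8.21 on blood Gr1- (1.79). On blood Gr1- Flt1 was below background (9.03). Met, the receptor of Hgf, had 1.43 and 1.35 in the same comparisons, and Nrp1, a co-receptor of Vegfa, had -1.38 and -1.84. In the blood, Met read 9.34 on Gr1+, close to its background of 9.09, and 7.99 on Gr1-, below background. Lifr, the LIF receptor subunit that also pairs with gp130, had -1.72 and -1.35, and Il6st, which encodes gp130 itself, was called in the blood only (-1.69).

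Receptors also differed between tumor and normal cells, with 2 of 14 lower in tumor MG (Il6st at -1.32, Lifr at -1.18; 3.09% of all genes called) and 2 lower in tumor MP (Igf1r at -1.17, Lifr at -1.18; 3.32% called). Igf1r, the receptor of Igf1, had 8.21 on tumor MP against 11.12 on tumor blood macrophage high (-2.91) and 7.64 on brain Gr1+ against 9.73 on blood Gr1+ (-2.09). On tumor MP and brain Gr1+ it was below background (9.23 and 9.01). In tumor MP against blood macrophage high, Nrp1 (1.52), Nrp2 (2.24) and Il6st (1.08) were higher, and in brain against blood Gr1+ Flt1 (1.83) and Il6st (1.29) were higher. In normal MP against normal MG, Il6st was lower (-1.45), and in blood Gr1+ against Gr1- cells Igf1r was higher (1.36).

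In the 2 further lists below, 0 to 3 members were called in a comparison, which is to be read against the shares of all genes called given above. Of 18 genes of binding proteins and ligand processing, Igfbp4, which binds IGF1, was called where Igf1 was in MP: it had 8.77 on tumor MP against 10.63 on normal MP (-1.85), and 10.63 on normal MP against 8.78 on normal MG (1.84). It was also lower in blood Gr1+ than in Gr1- (-1.06), where 9.04 on Gr1- was only just above background (9.03) and 7.98 on Gr1+ was below. Spint1, an inhibitor of the protease that activates HGF, had 1.43 in tumor against normal MP, -1.11 in normal MP against normal MG, and levels of 11.31 on tumor MP against 8.31 on blood macrophage high. Plau, the urokinase protease, had 2.97 in tumor MP against blood macrophage high, Furin 1.02 in brain Gr1+ against Gr1-, and the sheddase Adam10 -1.27 in normal MP against normal MG. Of 15 measured related ligands, 9 were above background on no array. Tgfa, an EGF receptor ligand, was lower in Gr1+ than in Gr1- cells of brain (-1.21) and blood (-1.24) and higher in tumor MP than in blood macrophage high (1.15). Fgf1 had -1.05 in normal MP against normal MG and 1.17 in tumor MP against blood macrophage high.

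Among 8 genes of the oxygen-sensing pathway that is known to control Vegfa, 3 were called higher in brain Gr1+ than in Gr1- cells and 0 lower, where 5.26% of all genes were called in either direction. They were Hif1a, the subunit that activates Vegfa (12.46 against 11.26, 1.19), and Egln1 (1.06) and Egln3 (1.30), the hydroxylases that mark it for decay. The median over the 8 was 0.48 there, against 0.04 over all genes. In the blood, Egln3 alone was called (10.35 on Gr1+ against 8.43 on Gr1-, 1.93). Epas1 was lower in tumor than in normal MP (8.45 against 9.83, -1.39). None of the 3 measured relatives of Bmp2k (Aak1, Gak and Stk16) was called in any of the 8 comparisons, and no gene of these lists in brain against blood by limma.

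Over the 12 arrays, patterns were compared among the 7 of the 10 genes that were above background on at least 3 arrays. Vegfb and Pdgfb had the highest r and rho (0.81 and 0.78). By r, Vegfb and Bmp2k came next (r = 0.74, rho = 0.75), and by rho, Pdgfb and Bmp2k (r = 0.66, rho = 0.77). Igf1, Vegfa and Osm were below background on 9 of the 12 arrays each, so their correlations, including those with the genes named next, rest largely on values with no order. All of these are descriptions over 12 unlike populations, with cell type make-up shared by all genes of an array. Among 8232 genes above background on at least 3 arrays, those most like Vegfa were Ikbke (r = 0.91), Ecm1 (0.91) and Thbs1 (0.91), each highest on blood Gr1+ as Vegfa was. Most like Pdgfb were Bhlhe41 (0.97), Tgfbr2 (0.95) and Siae (0.94), and most like Vegfb were Ak1 (0.98), Pmp22 (0.98) and Cadm1 (0.97). Bmp2k was nearest to Srgap2 (0.99), Plod1 (0.98) and Tpp1 (0.98), Igf1 to Uap1l1 (0.89), Inppl1 (0.88) and Sdhc (0.84), Osm to Aldh16a1 (0.92), Tarm1 (0.87) and Nlrx1 (0.87), and Pdgfa to Mid1 (0.92), Etv5 (0.91) and Src (0.90).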

How the data were processed

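The data were 12 Affymetrix Mouse Gene 1.0 ST arrays of flow-sorted cells. The authors amplified RNA in a modified protocol of repeated cycles and background corrected, normalized and summarized the probe sets in Expression Console. RMA is named in the submitters' processing notes. The deposited values are log2 expression values per probe set, with upper quartiles between 9.40 and 9.73, and were used without rescaling. Of 28944 probe sets, 21789 carry 1 symbol, 1621 several and 5534 none in the platform annotation, and the last 2 kinds were left out. The brightest probe set stood for a gene. The annotation's genome build is not given in the sources used here.

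Groups came from the sample labels. With 1 array per condition, 8 comparisons of 2 arrays carry no p-value, and a gene was called when at least 2-fold apart with the brighter array above background. Brain against blood was fitted with limma 3.58.1 in R 4.3.3 and Benjamini-Hochberg adjustment. Python 3.11.15 with numpy 2.4.6 and pandas 2.3.3 did the rest. The fits were tested on simulated data with independent noise for each gene and array. That test cannot tell how they behave among unlike populations.

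The 10 genes and all lists were chosen with earlier results of these data known. Named genes are the 10, list genes that were called, and for each of the 10 above background on at least 3 arrays the 3 genes with the highest Pearson's r; Snora52 is an exception. Alternatives were other scalings, thresholds, backgrounds, a floor at background, and arrays left out. Promoters from RefSeq were searched for 7 of the 10 genes, in 10 windows.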

Additional observations from a re-analysis of the deposited data

Results flagged for a closer look

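Vegfa on the blood Gr1+ array of tumor-bearing mice stood apart among the 6 blood arrays, at 11.04 against 7.77 to 8.42 on the others, with a gap that was 0.800 of the range. Pdgfb on the tumor brain Gr1+ array stood apart among the 6 brain arrays, at 8.44 against 10.28 to 11.12 on the others, with a gap that was 0.690 of the range. These arrays are different populations, 20 such ranges were looked at, and chance flags about 1 in 20 groups of replicates. Bmp2k went in opposite directions in the tumor comparisons, with -0.82 for tumor against normal MG and 0.46 for tumor against normal MP, and the difference between both (-1.29) was not tested. The summed level of microglia markers went the same ways. It was 14.76 on tumor against 15.67 on normal MG, and 14.88 on tumor against 13.94 on normal MP. The part of these markers in the Bmp2k values was not tested.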

How the results depend on the processing

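Of the 19 called differences between 2 arrays, 0 changed sign under the alternatives tried. Differences that were not called changed sign 25 times between 2 arrays, 21 of them with values raised to the floor at background, and 9 times in brain against blood. Among them, Vegfa in tumor against normal MG had 1.58 as deposited and -0.06 with the floor, Hgf there 1.54 and -0.06, and Igf1 in blood Gr1+ against Gr1- cells -0.73 and 0.07. Hbegf in tumor MP against blood macrophage high had 0.13, and -0.12 with median centring, and Osm in brain against blood had -0.09, and 0.11 without both tumor blood Gr1 arrays. Of the values for single genes in the 2-array comparisons, 370 moved by less than the yardstick and 30 moved by more, all 30 under a floor at background. In brain against blood 101 kept their call and 7 passed the threshold only under an alternative. Averaging a gene's probe sets gave 80 of the 370 and 10 of the 101. It tests nothing here, because each of the 10 genes has 1 probe set. The count of genes called moved as follows, and was the same under alternatives not named for a comparison. In tumor against normal MG it was 0, but 2 at 1.5-fold, 1 with background at the 90th percentile and 2 with no filter on dim genes. In tumor against normal MP it was 2, but 1 with the floor and 0 at 3-fold. In brain Gr1+ against Gr1- it was 3, but 5 at 1.5-fold and 2 after quantile or cyclic loess normalization, with the floor or at 3-fold. In blood Gr1+ against Gr1- it was 4, but 6 at 1.5-fold, 3 after each of the 3 rescalings or at 3-fold, and 2 with the floor. In normal MP against normal MG it was 2, but 3 at 1.5-fold, 1 with median centring and 1 at 3-fold. In brain against blood Gr1+ it was 2, but 1 with the floor and 0 at 3-fold. In tumor MP against blood macrophage high it was 6, but 7 at 1.5-fold, with background at the 90th percentile or with no filter on dim genes, 5 after each rescaling, 3 with the floor and 2 at 3-fold. In tumor MP against tumor MG it was 0 throughout. In brain against blood it was 0, but 1 with the floor (Bmp2k), 3 without the tumor blood Gr1- array, and 3 without both tumor blood Gr1 arrays. The last was chosen after seeing the data, as was leaving out the arrays with NK cell markers, which called 0. Over all 19938 genes, 7 were called in the main fit, 561 with the floor and 582 without the Gr1- array. Without both Gr1 arrays 956 were called, and 1 without the arrays with NK cell markers. For the 2-array comparisons, shares of all genes at other fold thresholds and backgrounds are not given here. Those counts therefore describe the settings and not the 10 genes. Hbegf and Pdgfc could not be fitted with only genes above background. Median centring moved the share of all called genes that were higher from 44.5% to 55.9% in MG, 50.5% to 61.1% in blood Gr1 cells, 69.9% to 81.1% in normal MP against MG, and 36.2% to 21.2% in tumor MP against blood macrophage high. No paired analysis was possible because each condition has 1 array. Values below background carry no order, which limits 7 of the 10 genes on at least 6 arrays.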
